A study of Mus musculus with 2 samples.

Results

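The genes described here encode the machinery that brings proteins into mitochondria and the carriers that move small molecules across the mitochondrial inner membrane. They were chosen by name, as every gene whose symbol begins with Tomm, Timm or Slc25a followed by a number, and this gave 67 genes on 142 probe sets, out of 18194 genes on the array. Of these, 8 are Tomm genes, 15 Timm genes and 44 Slc25a genes. The names do not all belong to 1 compartment: Tomm34 is a cytosolic co-chaperone, Slc25a17 is a carrier of the peroxisome, and Slc25a46 lies in the mitochondrial outer membrane.

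Nearly all mitochondrial proteins are made in the cytosol. The translocase of the outer membrane (TOM) admits them; the TIM23 complex then threads proteins with a cleavable presequence into the matrix, while small TIM chaperones ferry membrane proteins across the intermembrane space to the TIM22 complex, which inserts the carriers into the inner membrane. The Slc25a carriers are thus cargo of the same machinery, and they exchange nucleotides, phosphate, carboxylates, amino acids, iron and cofactors between cytosol and matrix.

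The samples were 2 single cells picked after papain dissociation of retinas from CD1 mice, an albino outbred strain, with no further treatment or mutation named in the labels. The P0 cell was taken on the day of birth and the E12.5 cell from an embryo at 12.5 days of gestation, with 1 cell per age; values given below as at P0 or at E12.5 are those of these single cells. Their mRNA was primed at the poly(A) tail, amplified by PCR and hybridised to 1 Affymetrix mouse array per cell. Both cells were placed in the developing ciliary body and iris by the submitters from their expression, after the arrays had been read, so the assignment is not independent of these values. With 1 cell per age there was no replicate check and no test between ages: each difference is between these 2 cells, the number of arrays limits the precision, and fewer transcripts in a cell cannot be told apart from transcripts lost in amplification.

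The values are MAS5 signals, a linear measure of hybridisation per probe set, scaled to the same trimmed mean of 500.0 on both arrays. A signal counted as above background when it exceeded the 99th percentile of 176 probe sets for olfactory receptors, keratin-associated proteins and similar families not known to act in the eye, which was 349 at P0 and 258 at E12.5. To be called for a cell, a gene had to pass the limit there with at least 4 times the signal of the other cell. Any signal under its limit was set to the limit for this, and such a fold, given as "at least", is a bound. Where a gene has several probe sets, the brightest by mean log2 signal stands for it. Of 22 markers of the ciliary margin and ciliary body, 14 were above the limit at P0 and 13 at E12.5, and of 11 retinal progenitor markers 9 and 10 were. The ciliary list had 6 genes (27.3%) called higher at P0 and 5 (22.7%) at E12.5. The progenitor list had 2 (18.2%) at P0 and 5 (45.5%) at E12.5, where 9.24% and 7.30% of all genes were called. Of 11 ganglion and amacrine cell markers, 1 was above the limit at P0 and 2 were at E12.5, with 1 (9.09%) called for each cell. None of 7 photoreceptor, 4 erythroid or 7 microglial markers was above the limit in either cell. In the P0 cell 1 of 7 vascular markers was above it. Of 9 lens and mesenchyme markers, 2 were above it in the P0 cell against 1 in the E12.5 cell. Both of those in the P0 cell (22.2% of the list) were called for it. The part of these marker genes in the results below was not tested.

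More of the 67 genes were above background at E12.5 than at P0. In the P0 cell 26 genes (38.8%) exceeded the limit, against 28.4% of all genes, and 40 genes (59.7%) did at E12.5, against 30.3% of all genes. A total of 24 genes were above it in both cells, 2 at P0 alone, 16 at E12.5 alone and 25 in neither. Over all genes these numbers were 3395, 1766, 2109 and 10924. At least 4-fold differences were called for 6 genes (8.96%) as higher at P0, where 9.24% of all genes were, and for 12 genes (17.9%) as higher at E12.5, where 7.30% of all genes were. The share called for the P0 cell was thus close to that of all genes. Among the 24 genes above the limit in both cells, 4 were called for the P0 cell and 3 for the E12.5 cell, where 10.4% and 6.95% of all such genes were. The other 11 calls rest on a cell below its limit and had to lean towards the brighter cell.

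**Figure D1:**
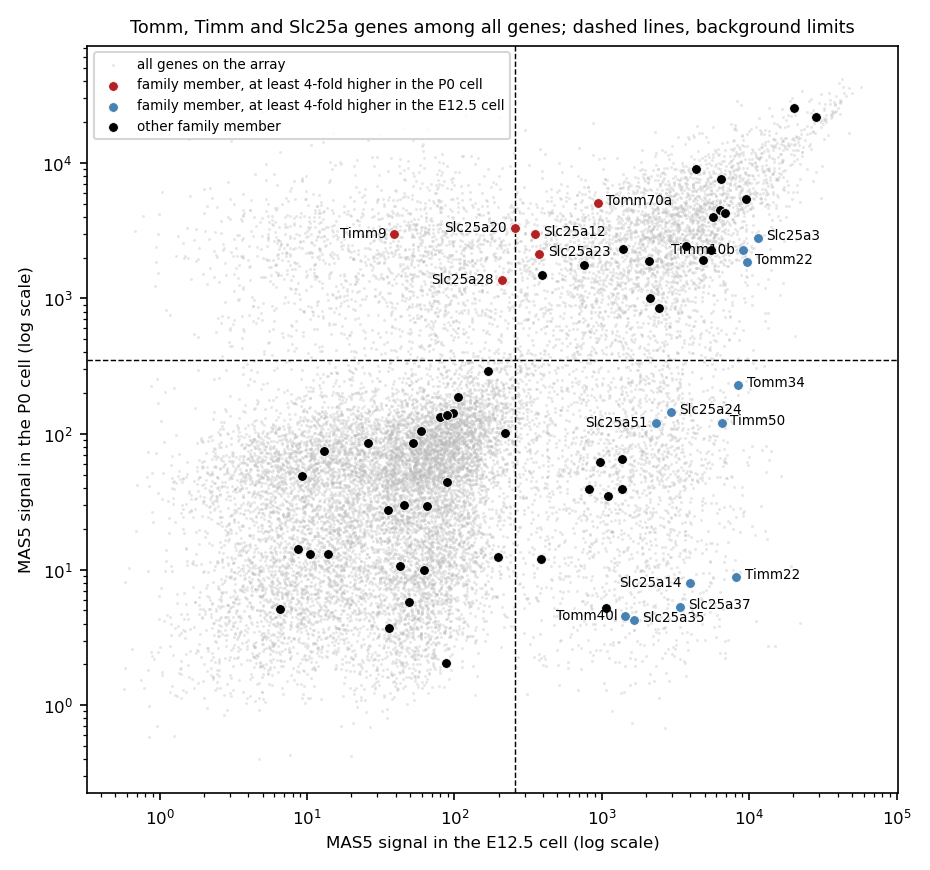
Each point is 1 gene, with its MAS5 signal at P0 on the vertical axis and at E12.5 on the horizontal axis, both on log scales; grey points are all 18194 genes, coloured and black points the 67 Tomm, Timm and Slc25a genes, and dashed lines the background limits of 349 and 258. The lower right field, above background at E12.5 alone, holds 16 of the 67 genes, and the upper left field holds 2.

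Of the 24 genes above the limit in both cells, 17 differed by less than 4-fold. Over the 24, the median log2 ratio (P0 over E12.5) was -0.43, against 0.00 over the 3395 such genes of the whole array, where the SD was 1.46. This median changed sign to 0.11 with the mean over all probe sets of a gene and to 0.21 without probe sets of the x, s and a types, which can bind more than 1 transcript. Different probe sets of the same gene, above the limit in both cells, gave log2 ratios that scattered with an SD of 0.83 over 975 genes and of 0.71 over 10 of the genes described here. With the arrays scaled to the spike-in controls instead, which moved the median log2 ratio of all shared genes to -0.86, the median of the 24 genes was -1.30 and the calls numbered 3 for P0 and 21 for E12.5, where the deposited scaling gave 6 and 12. Over all genes that scaling gave 33.1% of calls to the P0 cell, in place of 55.9%. Slc25a23, Slc25a28 and Tomm70a lost their call for P0 with it. Folds below use the deposited scaling, and each log2 ratio measured in both cells is lower by 0.87 with the spike-ins. The counts of genes above background did not move with the scaling, since the limits scale with the arrays.

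The import genes were detected more often than the carriers. Of the 23 Tomm and Timm genes, 15 (65.2%) exceeded the limit at P0 and 19 (82.6%) at E12.5, with 14 above it in both. Of the 44 Slc25a genes, 11 (25.0%) exceeded it at P0 and 21 (47.7%) at E12.5, with 10 above it in both. The carriers thus stood near the 28.4% of all genes at P0 and above the 30.3% of all genes at E12.5. Calls for the P0 cell covered 2 import genes (8.70%) and 4 carriers (9.09%), close to the 9.24% of all genes. Those for the E12.5 cell covered 6 import genes (26.1%), counting Tomm34 by its name, and 6 carriers (13.6%). Of all genes 7.30% were called for the E12.5 cell.

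For comparison, 51 of 76 mitochondrial ribosomal protein genes (67.1%) were above background at P0 and 57 (75.0%) at E12.5. Of 90 genes for respiratory chain subunits, 69 (76.7%) were above it at P0 and 77 (85.6%) at E12.5. Calls were even among the ribosomal protein genes, with 13 (17.1%) higher at P0 and 14 (18.4%) at E12.5. Over all genes these shares were 9.24% and 7.30%. The 18.4% at E12.5 was close to the 17.9% of the 67 import and carrier genes. Among respiratory chain genes 2 (2.22%) were higher at P0 and 7 (7.78%) at E12.5, the second share close to that of all genes. The differences between these sets and the import and carrier genes were not tested.

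**Figure D2:**
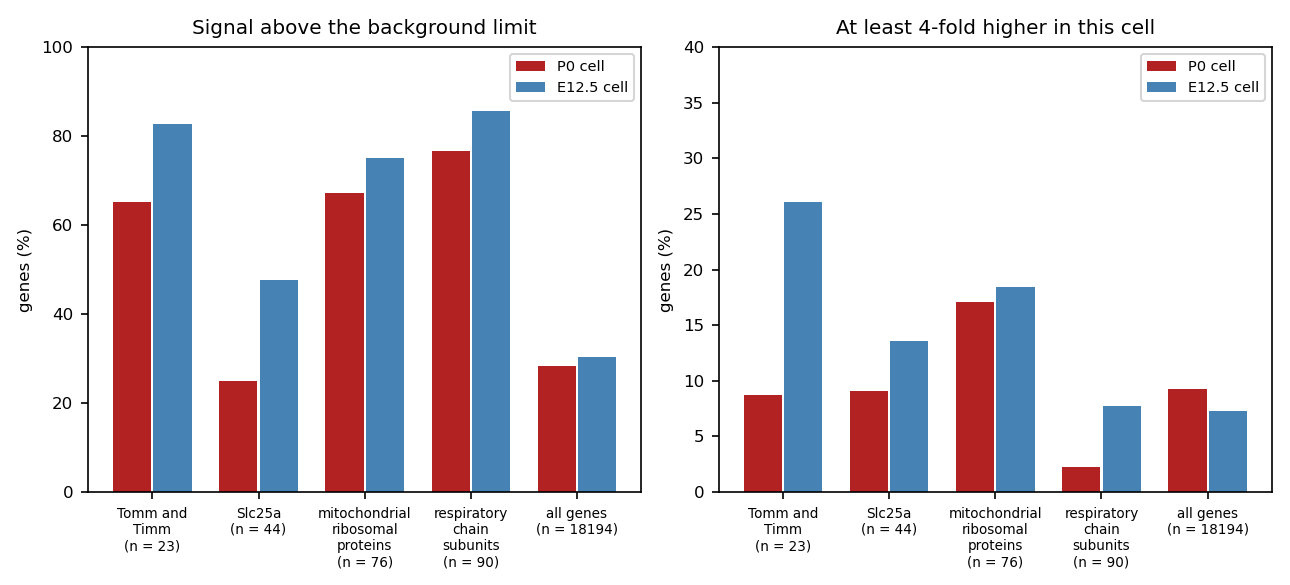
Bars give the percentage of genes in each set whose signal was above the background limit (left) and the percentage at least 4-fold higher in that cell (right), with the P0 cell in red and the E12.5 cell in blue; there are no error bars, as each bar comes from 1 cell. For Tomm and Timm genes the bars reach 65.2% and 82.6% on the left, and 8.70% and 26.1% on the right.

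Tomm40, the pore of the TOM complex, was above background in both cells, with a signal of 1479 at P0 and 392 at E12.5. The P0 signal was 3.77-fold higher, short of the 4-fold rule. Its relative Tomm40l was above background at E12.5 alone, with a signal of 4.54 at P0 and 1448 at E12.5, at least 4.15-fold higher there. The second probe set of Tomm40l was below the limit in both cells.

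Among the receptors and small subunits, Tomm22, Tomm20 and Tomm7 were brighter at E12.5 on every probe set above a limit. Tomm22, a receptor subunit that ties the complex together, had signals of 1846 at P0 and 9601 at E12.5, 5.20-fold higher at E12.5, and its second probe set gave 733 and 2460, a 3.35-fold difference. Tomm20, the receptor for presequences, had 853 at P0 and 2437 at E12.5, 2.86-fold higher at E12.5. All 5 Tomm20 probe sets above a limit were higher at E12.5, and 2 of them exceeded 4-fold, at least 6.73-fold and at least 9.67-fold. Tomm7, a small subunit, had 1006 at P0 and 2140 at E12.5, 2.13-fold higher at E12.5, and its other probe sets above a limit pointed the same way.

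Tomm70a, the receptor for carrier precursors, gave no settled direction. Its representative probe set had 5086 at P0 and 944 at E12.5, 5.39-fold higher at P0. Both of its other probe sets above background pointed the other way, with 1345 at P0 and 2519 at E12.5, and with 1137 and 3455. The call for the P0 cell therefore rests on 1 of 3 measurable probe sets. Tomm34, the cytosolic co-chaperone, had a signal of 231 at P0, below the limit, and 8451 at E12.5, at least 24.2-fold higher there and measured by 1 probe set. Tomm20l, a relative of Tomm20, was below background in both cells.

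**Figure D3:**
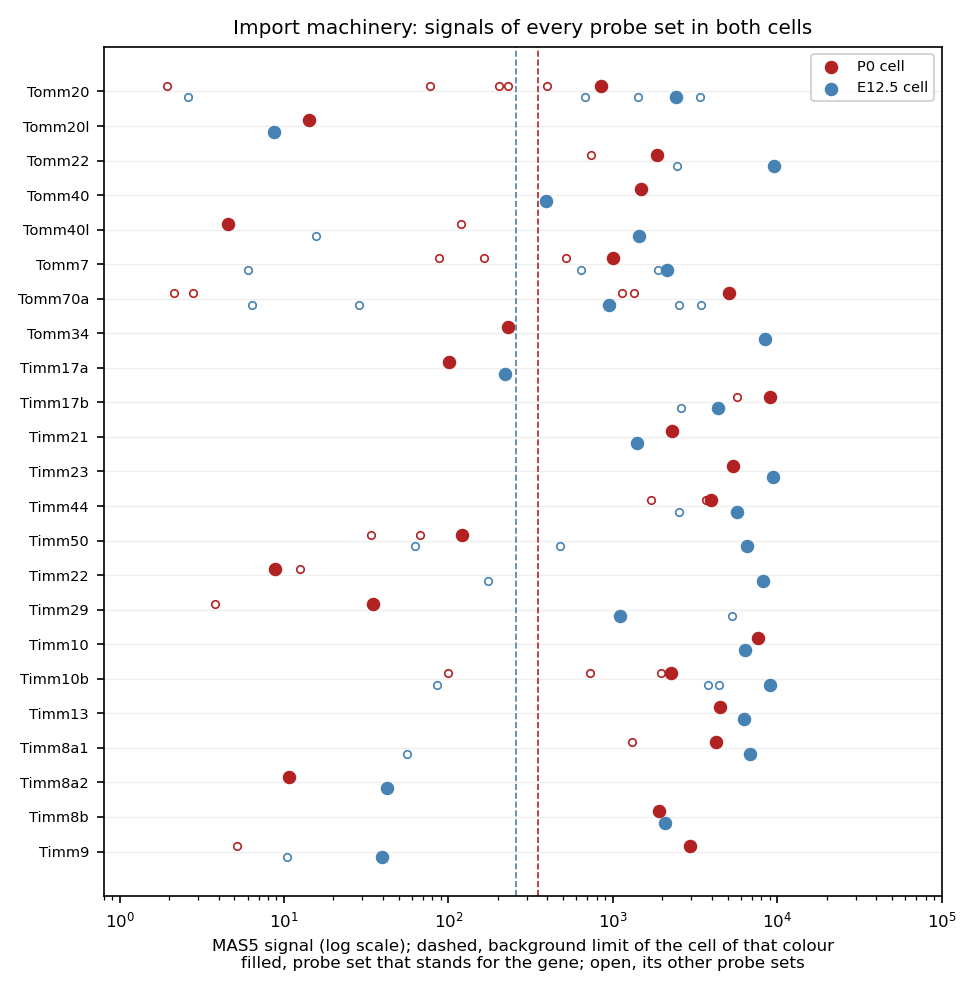
MAS5 signals on a log axis of all probe sets for the 23 Tomm and Timm genes, at P0 (red) and at E12.5 (blue); filled points are the probe sets that stand for the gene, open points its other probe sets, and dashed lines the background limit of each cell. Timm22, Timm29 and Timm50 lie left of the red line at P0 and have probe sets right of the blue line at E12.5, and Timm9 shows the reverse.

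Most of the TIM23 complex was present in both cells. Timm23, the channel subunit, had a signal of 5411 at P0 and 9491 at E12.5. Timm17b, which forms the channel with it, had 8977 at P0 and 4360 at E12.5, 2.06-fold higher at P0, and its second probe set gave 2.17-fold in the same direction. The paralogue Timm17a was below background in both cells, with 101 and 222. Only the b form was therefore detected here, at this limit. Timm44, which tethers the import motor, had 3962 at P0 and 5729 at E12.5, and its 3 probe sets agreed closely, with ratios from 1.45-fold to 1.52-fold. Timm21, a regulatory subunit, had 2294 at P0 and 1401 at E12.5, 1.64-fold higher at P0, a direction that the spike-in scaling turns round.

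Timm50, the subunit that receives presequence proteins from TOM, stood apart from these. Its signal was 121 at P0, below the limit, and 6543 at E12.5, at least 18.7-fold higher there. A second probe set had 67.6 at P0 and 479 at E12.5, the same direction with a bound of 1.37-fold, and its remaining probe set was below background in both. The size of the difference therefore comes from 1 probe set.

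The 2 genes listed here for the TIM22 complex, Timm22 and Timm29, were above background at E12.5 alone. Timm10b, which links the chaperones to this complex, is listed with the small TIM chaperones and was above background in both cells. Timm22, the channel that inserts carriers, had a signal of 8.87 at P0 and 8184 at E12.5, at least 23.4-fold higher there. Its second probe set was below the limit in both cells, with 12.5 and 175. Timm29, a partner of Timm22 described in human cells, had 34.8 at P0 and 1102 at E12.5, at least 3.16-fold higher, and a second probe set had 3.80 and 5307, at least 15.2-fold higher. The gene was not called because the probe set that represents it has the lower E12.5 signal.

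Of the 7 small TIM chaperones, 6 were above background at P0 and 5 at E12.5, and Timm9 and Timm10b were called, in opposite directions. Timm10 had 7588 at P0 and 6394 at E12.5, a difference of 1.19-fold that also changes direction with the spike-ins. Timm9, with which Timm10 forms a hexamer, had 2962 at P0 and 39.2 at E12.5, at least 11.5-fold higher at P0, while its second probe set was below background in both cells. The partners were thus both detected at P0, and only Timm10 at E12.5. Timm10b, which links the chaperones to TIM22, had 2256 at P0 and 9047 at E12.5, 4.01-fold higher at E12.5, just inside the 4-fold rule and lost under 5 of 9 alternatives. Its other probe sets above background gave 5.16-fold and 2.25-fold in the same direction.

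The second chaperone pair, Timm8a1 with Timm13, and the related Timm8b were above background in both cells. Timm13 had 4494 at P0 and 6299 at E12.5, and Timm8b had 1902 and 2084. Timm8a1, the gene whose human counterpart is mutated in a deafness and dystonia syndrome, had 4226 at P0 and 6815 at E12.5 by 1 probe set, and 1311 and 56.1 by the other. Those probe sets pointed in opposite directions, so no direction is given for Timm8a1. Timm8a2 was below background in both cells.

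Among the carriers, the adenine nucleotide translocases, which export ATP in exchange for ADP, were far above the limit in both cells on nearly every probe set. Slc25a5, the widely expressed form, had 25358 at P0 and 20106 at E12.5, 1.26-fold higher at P0 but higher at E12.5 with the spike-in scaling. All 8 of its probe sets leaned to P0 with the deposited scaling, by 0.18 to 0.46 on the log2 scale. That is less than the 0.87 by which the spike-in scaling lowers each ratio. Slc25a4, the form of heart and muscle, had 21892 at P0 and 28366 at E12.5, 1.30-fold higher at E12.5, and its other probe sets above background gave 1.61-fold and 2.18-fold. Slc25a31, the germ cell form, was below background in both cells. Many probe sets of Slc25a4 and Slc25a5 are of types that can bind related transcripts, so the 2 genes may not be fully separated.

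The phosphate carrier Slc25a3, which supplies ATP synthase, had 2774 at P0 and 11510 at E12.5, 4.15-fold higher at E12.5. Its other probe set was below background in both, with 62.3 at P0 and 10.7 at E12.5. The call for Slc25a3 was lost under 4 of 9 alternatives, and its log2 ratio of -2.05 was 0.24 with the mean over both probe sets. The calcium-dependent carriers of ATP-Mg and phosphate split between the cells. Slc25a23 had 2137 at P0 and 377 at E12.5, 5.67-fold higher at P0. Slc25a24 had 145 at P0 and 2946 at E12.5, at least 8.44-fold higher at E12.5, with at least 5.08-fold by a second probe set. The first of these paralogues was thus brighter at P0 and the second detected at E12.5 alone, while Slc25a25 and Slc25a41 were below background in both.

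A similar division held for the mitoferrins, which bring iron to the matrix for heme and iron-sulfur clusters. Slc25a28, mitoferrin 2, had 1371 at P0 and 209 at E12.5, at least 5.31-fold higher at P0. Slc25a37, mitoferrin 1, had 5.28 at P0 and 3403 at E12.5, at least 9.75-fold higher at E12.5. Each gene has 1 probe set, so neither has a second measurement. Mitoferrin 1 is best known from red cell precursors; of the 4 erythroid markers on the array 0 were above background in either cell.

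Several carriers of substrates for the citrate cycle and its shuttles were above background at E12.5 alone. Slc25a1, the citrate carrier, had 61.9 at P0 and 966 at E12.5, at least 2.77-fold higher. Slc25a10, the dicarboxylate carrier, had 39.6 at P0 and 815 at E12.5, at least 2.34-fold higher, with at least 3.60-fold by its second probe set. Slc25a22, a glutamate carrier, had 11.9 at P0 and 389 at E12.5, at least 1.11-fold higher. None of these 3 bounds reached 4-fold.

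The malate-aspartate shuttle, which carries reducing power from the cytosol into the matrix, uses an aspartate-glutamate carrier and the oxoglutarate carrier, and both were brighter at P0. Slc25a12, the aspartate-glutamate carrier of brain and muscle, had 2982 at P0 and 352 at E12.5, 8.48-fold higher at P0, while its other 2 probe sets were below background in both cells. Slc25a11, the oxoglutarate carrier, had 1768 at P0 and 763 at E12.5, 2.32-fold higher and thus not called. Slc25a13, the liver form of the aspartate-glutamate carrier, was below background in both cells.

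Slc25a20, which passes acylcarnitines into the matrix for fatty acid oxidation, was the carrier with 2 probe sets both called for the P0 cell. Its signals were 3282 at P0 and 259 at E12.5, 12.7-fold higher at P0, where the E12.5 signal lay just above the limit of 258. The second probe set had 4442 at P0 and 7.70 at E12.5, at least 17.2-fold higher. It was the only 1 of 11 carriers for amino acids, carnitine and one-carbon units above background in either cell.

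Of 10 carriers of iron, cofactors and nucleotides, 4 were above background at P0 and 7 at E12.5, and Slc25a28 was the only such carrier brighter at P0. Slc25a51, which in human cells imports NAD, had 121 at P0 and 2349 at E12.5, at least 6.73-fold higher, and its other 2 probe sets were below background. Slc25a39, which imports glutathione, had 1917 at P0 and 4891 at E12.5, 2.55-fold higher, and its 4 probe sets above background lay between 1.73-fold and 2.57-fold. The second glutathione carrier, Slc25a40, had 39.3 at P0 and 1377 at E12.5, at least 3.94-fold higher. Slc25a36, a pyrimidine nucleotide carrier, had 2267 at P0 and 5550 at E12.5, 2.45-fold higher, with at least 2.61-fold by a second probe set. Slc25a16 had 5.24 at P0 and 1062 at E12.5, at least 3.04-fold higher. Slc25a17, the peroxisomal cofactor carrier, had 2446 and 3725, a difference of 1.52-fold.

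Of 8 uncoupling-like, outer membrane and unassigned carriers, 0 were above background at P0 and 3 were at E12.5. Slc25a14, a relative of the uncoupling proteins, had 7.97 at P0 and 3950 at E12.5, at least 11.3-fold higher. Slc25a35, a carrier with no settled substrate, had 4.24 at P0 and 1642 at E12.5, at least 4.70-fold higher. Slc25a46, an outer membrane protein tied to mitochondrial fusion and fission, had 65.0 at P0 and 1375 at E12.5, a bound of 3.94-fold just outside the 4-fold rule.

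**Figure D4:**
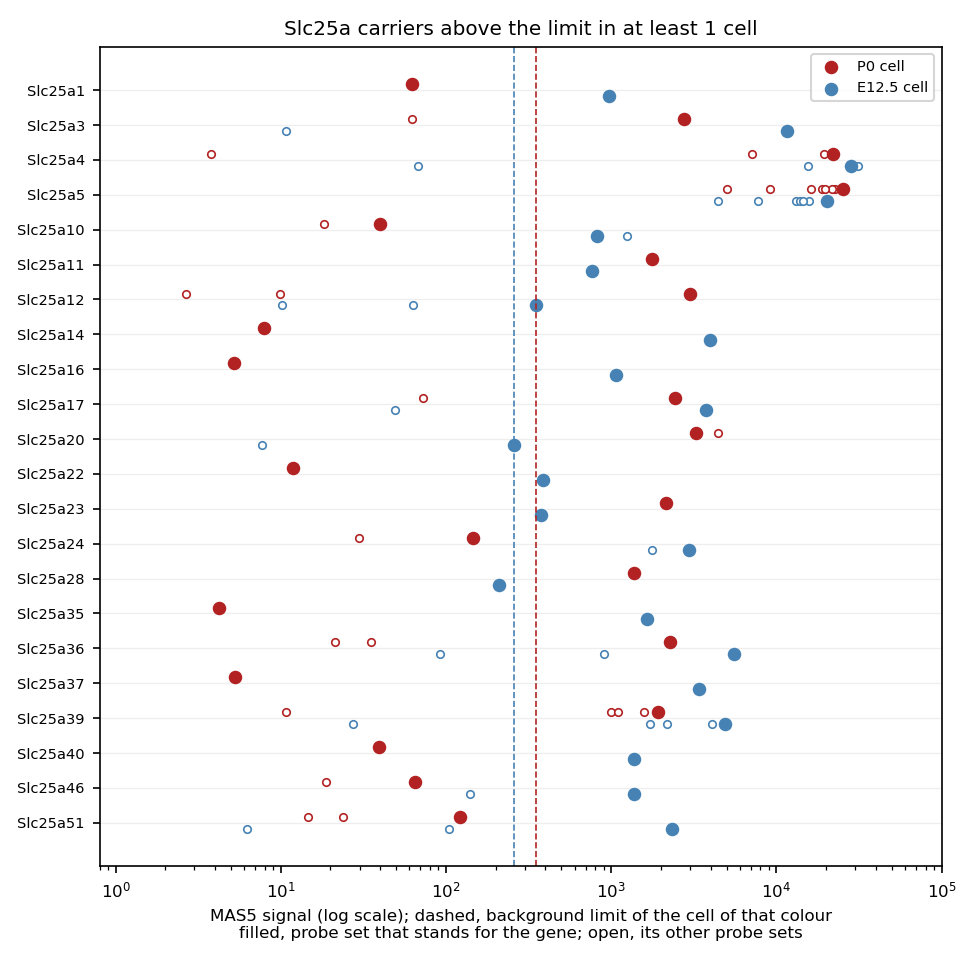
MAS5 signals on a log axis for the 22 Slc25a genes above background in at least 1 cell, at P0 (red) and at E12.5 (blue); filled points are the probe sets that stand for the gene, open points its other probe sets, and dashed lines the background limits. All but 1 of the Slc25a4 and Slc25a5 probe sets lie above the limits in both cells, while Slc25a14, Slc25a35 and Slc25a37 are above the limit at E12.5 alone.

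The 25 genes below background in both cells were Timm17a, Timm8a2, Tomm20l and 22 carriers: Slc25a2, a13, a15, a18, a25, a26, a27, a29, a30, a31, a32, a33, a34, a38, a41, a42, a44, a45, a47, a48, a53 and a54. Their signals ran from 2.05 to 292 at P0 and from 6.51 to 222 at E12.5. They include carriers known for liver or urea cycle roles (Slc25a15 for ornithine and Slc25a47), the neuronal uncoupling relative Slc25a27, the glycine carrier Slc25a38 and the folate carrier Slc25a32. A single-cell cDNA can lose a transcript, so these genes were not detected at this limit and cannot be called absent.

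Probe sets of the same gene mostly agreed in direction, and less well in size. Of the 67 genes, 36 had more than 1 probe set, and 17 had more than 1 above a limit. In 15 of the 17 all such probe sets pointed the same way, and in 2, Timm8a1 and Tomm70a, they did not. Of the 18 called genes, 6 had a further probe set above a limit, which pointed the same way in 5 and was itself called in 3 (Slc25a20, Slc25a24 and Timm10b). Another 6 called genes had 1 probe set only, and 6 had further probe sets that were all below background. Slc25a3, Timm10b, Timm50 and Timm9 lost their call without probe sets of the x, s and a types. Counted by probe set, 8 of 142 were at least 4-fold higher at P0, against 7.21% of all probe sets with 1 symbol, and 17 of 142 were so at E12.5, against 5.68%.

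**Figure D5:**
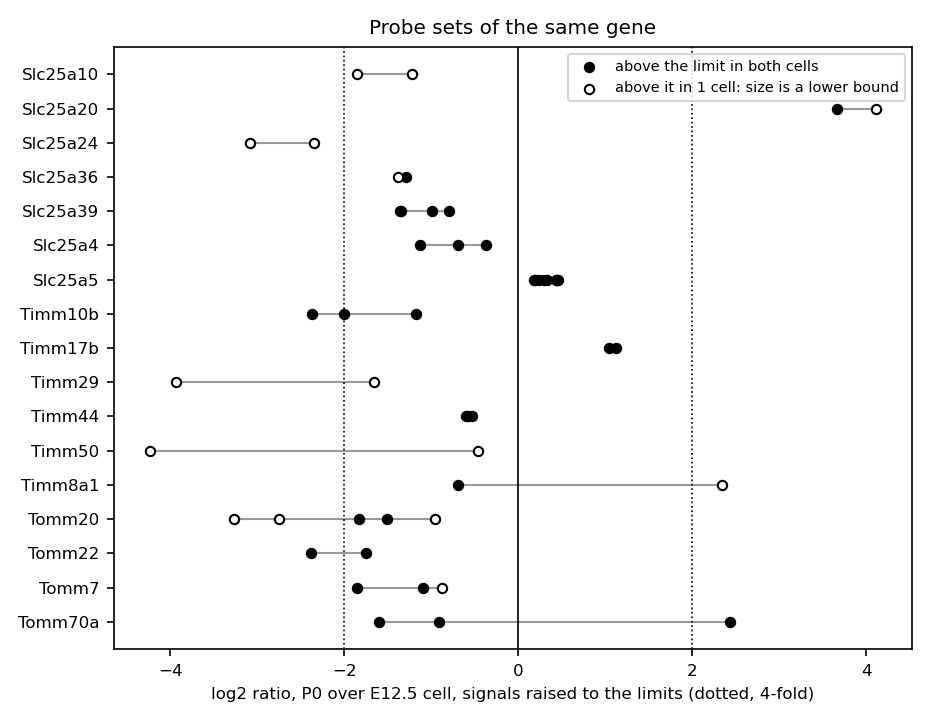
Each row is a gene with more than 1 probe set above a limit, and each point 1 probe set's P0 signal over its E12.5 signal, as a log2 ratio, filled where both cells were above background and open where the ratio is a bound; dotted lines mark 4-fold. Points fall on 1 side of zero in 15 of 17 genes, and on both sides for Timm8a1 and Tomm70a.

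Other genes of the pathway were read from lists that the naming rule does not cover. Of 28 genes for the import motor, presequence processing and membrane assembly, 16 (57.1%) were above background at P0 and 21 (75.0%) at E12.5. Over all genes these shares were 28.4% and 30.3%. Of the 28, 2 (7.14%) were called higher at P0 and 7 (25.0%) at E12.5, where 9.24% and 7.30% of all genes were. The P0 calls were Pmpcb, a subunit of the peptidase that removes presequences (2031 at P0 and 307 at E12.5, 6.62-fold), and Chchd6, of the cristae-organising complex (2784 and 146, at least 10.8-fold). The E12.5 calls were Apoo, of the same complex (4.63 at P0 and 6027 at E12.5, at least 17.3-fold), the motor co-chaperone gene Dnajc15 (62.9 and 4056, at least 11.6-fold), the nucleotide exchange factor gene Grpel2 (at least 10.1-fold), the inner membrane peptidase gene Immp1l (1008 and 9219, 9.15-fold), the outer membrane assembly gene Mtx1 (at least 7.90-fold), Romo1 (805 and 4415, 5.48-fold) and Timmdc1 (at least 4.59-fold). Of 17 other mitochondrial carriers, pores and channels, 9 (52.9%) were above background at P0 and 8 (47.1%) at E12.5. Calls were even, with 2 (11.8%) for each cell. Sfxn5 (4787 at P0 and 33.2 at E12.5, at least 18.5-fold) and Letm1 (at least 5.75-fold) were higher at P0, and Mtch2, an outer membrane insertase (828 and 6641, 8.02-fold), and the transporter gene Abcb10 (at least 5.85-fold) at E12.5.

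Of 12 regulators of mitochondrial biogenesis, 3 (25.0%) were above background at P0 and 8 (66.7%) at E12.5, against 28.4% and 30.3% of all genes. Calls numbered 1 (8.33%) for P0 and 3 (25.0%) for E12.5, against 9.24% and 7.30% of all genes. Polrmt, the mitochondrial RNA polymerase gene, had 2447 at P0 and 204 at E12.5, at least 9.48-fold higher at P0. Gabpb1, encoding a subunit of the factor GABP (nuclear respiratory factor 2), had 24.8 at P0 and 4248 at E12.5, at least 12.2-fold higher. Pprc1, a coactivator gene, was at least 6.77-fold and Tfb1m, a mitochondrial ribosomal RNA methyltransferase gene, at least 5.81-fold higher at E12.5. The genes of the 3 DNA-binding factors looked for in promoters were named after their values had been seen. Gabpa, the DNA-binding subunit of GABP, had 8.28 at P0 and 1221 at E12.5, at least 3.50-fold higher. Nrf1 had 146 at P0 and 358 at E12.5, where it barely passed the limit, and Yy1 had 10813 and 4808, above background in both cells.

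Promoter sequence was available for 54 of the 67 genes, as 65 windows from 250 bases before to 50 after an annotated start (RefSeq, GRCm38.p6). They were searched on both strands for the core of the NRF-1 site, which is GCGCA and GCGC with any 1 base between them, CCGGAAG, a site of GABP that many other ETS factors share, and GCCATNTT, a site of YY1. CCGGAAG was found in 17 of the 65 windows (26.2%), against 13.0% of the 18010 windows of genes on the array and 8.86% of all 32851 windows. The NRF-1 core was in 4 windows (6.15%), against 7.45% of windows of genes on the array and 4.60% of all, and the YY1 site in 4 (6.15%), against 6.75% and 6.05%. By gene, CCGGAAG was present in 16 of the 54, against 2159 of 14369 genes on the array. It was present in 2 of 6 genes called higher at P0, in 4 of 8 called higher at E12.5, in 5 of 15 above background in both and not called, and in 4 of 19 below background in both. Of the genes above background at E12.5 alone and not called, Timm29 held it, and Slc25a1, Slc25a10, Slc25a16, Slc25a22 and Slc25a40 did not. A match is a description of these letters and says nothing of binding.

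The 7 windows shown, 300 bases each, are from genes described above and hold at least 1 match, with matches on either strand in capitals, written 5′ to 3′ on the gene's own strand. Slc25a3 (chr10:91123918-91124217, minus strand) was the gene with all 3 motifs, and Tomm20 (chr8:126945872-126946171, minus strand) held the NRF-1 core. Tomm22 (chr15:79670618-79670917, plus strand), Tomm34 (chr2:164071120-164071419, minus strand) and Timm29 (chr9:21592472-21592771, plus strand) were brighter at E12.5 and held CCGGAAG or its reverse complement. Slc25a20 (chr9:108661886-108662185, plus strand) and Tomm70a (chr16:57121464-57121763, plus strand), called higher at P0, held it too. In Tomm22 the motif and its reverse complement overlap in 1 run of capitals.
Slc25a3: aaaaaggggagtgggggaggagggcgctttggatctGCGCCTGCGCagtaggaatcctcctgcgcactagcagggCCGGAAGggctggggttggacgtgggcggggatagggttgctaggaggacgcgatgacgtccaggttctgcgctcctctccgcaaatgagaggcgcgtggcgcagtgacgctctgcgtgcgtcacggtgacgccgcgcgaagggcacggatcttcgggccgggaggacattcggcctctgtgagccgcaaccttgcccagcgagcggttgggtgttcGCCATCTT
Tomm20: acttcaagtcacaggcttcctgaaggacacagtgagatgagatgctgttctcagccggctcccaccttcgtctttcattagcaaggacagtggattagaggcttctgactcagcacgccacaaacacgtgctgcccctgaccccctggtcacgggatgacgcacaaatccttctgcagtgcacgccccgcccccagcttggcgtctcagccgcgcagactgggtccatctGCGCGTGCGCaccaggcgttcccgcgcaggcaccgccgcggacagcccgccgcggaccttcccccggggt
Tomm22: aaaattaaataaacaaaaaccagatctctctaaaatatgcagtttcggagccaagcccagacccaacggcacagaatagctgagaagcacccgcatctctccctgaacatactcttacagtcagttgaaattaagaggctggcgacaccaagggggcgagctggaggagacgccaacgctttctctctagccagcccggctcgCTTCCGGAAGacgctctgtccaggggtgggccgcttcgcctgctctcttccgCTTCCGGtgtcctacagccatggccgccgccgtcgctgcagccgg
Tomm34: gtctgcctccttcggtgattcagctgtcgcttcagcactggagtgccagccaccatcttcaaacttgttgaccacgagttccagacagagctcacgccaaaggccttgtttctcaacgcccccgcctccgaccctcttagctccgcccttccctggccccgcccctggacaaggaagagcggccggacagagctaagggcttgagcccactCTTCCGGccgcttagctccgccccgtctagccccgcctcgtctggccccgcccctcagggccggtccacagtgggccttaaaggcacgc
Timm29: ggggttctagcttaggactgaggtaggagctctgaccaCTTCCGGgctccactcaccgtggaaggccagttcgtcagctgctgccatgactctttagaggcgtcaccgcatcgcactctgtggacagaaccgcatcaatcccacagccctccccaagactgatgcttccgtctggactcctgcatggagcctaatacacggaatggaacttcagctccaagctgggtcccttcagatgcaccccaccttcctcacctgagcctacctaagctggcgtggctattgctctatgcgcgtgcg
Slc25a20: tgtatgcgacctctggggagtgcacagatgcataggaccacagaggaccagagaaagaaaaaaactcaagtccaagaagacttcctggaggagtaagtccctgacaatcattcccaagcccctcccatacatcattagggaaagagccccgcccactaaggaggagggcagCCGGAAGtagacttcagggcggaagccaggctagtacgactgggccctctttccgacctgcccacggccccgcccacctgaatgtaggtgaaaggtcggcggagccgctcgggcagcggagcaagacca
Tomm70a: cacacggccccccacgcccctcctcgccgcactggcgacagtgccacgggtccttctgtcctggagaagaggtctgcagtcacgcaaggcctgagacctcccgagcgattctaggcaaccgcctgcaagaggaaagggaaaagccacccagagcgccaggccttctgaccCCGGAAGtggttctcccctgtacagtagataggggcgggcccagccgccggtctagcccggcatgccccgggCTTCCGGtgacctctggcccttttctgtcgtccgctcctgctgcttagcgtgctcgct
CCGGAAG stands in the windows of both Slc25a20, higher at P0, and Tomm22, higher at E12.5. A link between motif and direction was not tested.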

How the data were processed

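The authors deposited 1 MAS5 signal intensity per probe set and cell, computed with MAS5 software, per the labels and the submitters' processing notes; the version used is not given in the sources used here. MAS5 scales each array on its own. The table holds 45101 probe sets, with no detection calls and no scanner files used here. Probe sets were named from GEO's platform annotation: 34958 carried 1 gene symbol, 932 several (not used) and 9211 were not listed. Probe set positions are not given, since the sources used here name no build for them.

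Limits, representative probe sets, ratios and 4-fold calls were computed with Python 3.11.15, numpy 2.4.6 and pandas 2.3.3 as the results describe, and the calling rule was tested on simulated data. No test between ages was possible with 1 cell per age. The genes and lists were chosen with earlier results of these data known. All 67 genes could be named; genes outside the rule were named only from written lists, those called first, except Gabpa, Nrf1 and Yy1. Alternatives covered the limit, the scaling, the choice of probe set, the pseudocount and the fold. Tomm5, Tomm6, Slc25a21, Slc25a43 and Slc25a52 were not analysed here.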

Additional observations from a re-analysis of the deposited data

How the results depend on the processing

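The direction of the balance, with more genes above background and more calls in the E12.5 cell, held under every alternative run; its size did not. Calls for the P0 cell numbered 3 and for the E12.5 cell 21 with scaling to the spike-ins, 3 and 7 with the mean over probe sets, and 3 and 6 with an 8-fold threshold, in place of 6 and 12. Shares over all genes moved too: in the same order 5.76%, 4.74% and 5.14% were called for P0, in place of 9.24%. For E12.5 these shares were 11.6%, 3.85% and 3.20%, in place of 7.30%. The E12.5 calls were 19 with the limit at the 95th percentile and 19 with the limit from bacterial controls, both with 6 P0 calls, and 22 with a 2-fold threshold. With either of these limits 37 genes were above background at P0 and 44 at E12.5, in place of 26 and 40, and 31 in both. Without probe sets whose names end in x, s or a, 59 genes were left, of which 16 were above the limit in the P0 cell, in place of 26. Of all 16593 genes left, 24.8% were above it in the P0 cell, in place of 28.4%. The median log2 ratio of genes above the limit in both cells, -0.43, was -1.30 with the spike-ins, and changed sign to 0.11 with the mean over probe sets and to 0.21 without x, s and a probe sets. Slc25a3 changed sign to 0.24 with the mean over probe sets, which averages in a probe set below background. The cause of the other changes was not tested.

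Of the 18 called genes, Slc25a14, Slc25a20, Slc25a24, Slc25a35, Tomm22 and Tomm34 kept their call under all 9 alternatives that hold the fold at 4, and Slc25a37 under the 8 in which it had a probe set, while Timm10b lost it under 5 and Slc25a3 under 4. With the mean over probe sets 9 of the 18 lost it. Several alternatives could not remove some of these calls. Slc25a14, Slc25a35 and Tomm34 have 1 probe set each, outside the x, s and a types. Both alternatives in the choice of probe set thus left their log2 ratios at -3.50, -2.23 and -4.60. A lower limit can only enlarge a bound, and the spike-in scaling moves every ratio towards E12.5. A limit without x, s and a background probe sets, 132 at P0 and 196 at E12.5, was added after seeing the data and gave 6 and 18 calls. With it 33 genes were above background at P0 and 43 at E12.5. Of all genes, 36.6% were then above background at P0 and 32.2% at E12.5, and 10.0% and 10.4% were called. Without a filter or with a pseudocount no limit-based median was computed. No paired analysis was possible because each age has 1 cell.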
